A study of Homo sapiens with 15 samples.

Results

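The genes described here are 7 cytokines of the interleukin 6 and colony-stimulating factor families (IL6, IL11, LIF, CLCF1, CSF1, CSF2 and CSF3) and 3 receptor chains of the interleukin 6 family (IL6ST, LIFR and OSMR). They were chosen by name, and all 10 were found among the 23368 genes of the count table. RNA-seq was run on 15 libraries from 3 clones of brain metastatic derivatives of breast cancer lines. Each clone started as a single cell and carries a FLAG-tagged RBM47 transgene, which doxycycline switches on through the pRetroX-Tight-Pur vector. WT6 and WT10 cells carry wild type RBM47 and MUT3 cells carry RBM47-I281fs, a frameshift mutant. The study reports little mutant protein although its mRNA was strongly expressed, and reads this as an unstable and so inactive protein. The labels place all 3 clones in MDA231, while the methods of the study derive WT6 from CN34-BrM2 and WT10 and MUT3 from 231-BrM2. Each clone was sequenced without doxycycline and at 1, 2.5, 5 and 25 ng/ml, with 1 library per clone and dose, so no condition was repeated and each clone is 1 clone of its genotype. A difference between the genotypes therefore cannot be told apart from one between clones.

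Cytokines of the interleukin 6 family act through receptors that share the IL6ST chain (gp130), paired with a second chain such as LIFR or OSMR. These receptors switch on JAK kinases, which phosphorylate STAT3, and SOCS3 is a feedback inhibitor that STAT3 induces and that binds to the shared chain. CSF1, CSF2 and CSF3 are growth factors of macrophages, of granulocytes and macrophages, and of granulocytes. The mRNAs of many of these cytokines are short-lived and carry AU-rich stretches in the 3′ untranslated region (3′UTR), to which decay and stabilizing proteins bind. RBM47 is itself an RNA-binding protein.

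Each library held between 14955172 and 44771871 reads assigned to genes (median 18152381), with the largest number in WT10 cells at 5 ng/ml. A normalized count is the number of reads divided by the library's size factor, and 3 reads, taken as the floor, stood for 1.19 to 4.09 normalized counts. RBM47 itself rose from 258 to 10425 normalized counts between 0 and 25 ng/ml in WT6 cells, from 168 to 19877 in WT10 cells and from 73.8 to 22084 in MUT3 cells. With 5 ng/ml of doxycycline RBM47 reached 3966 in WT6, 8134 in WT10 and 949 in MUT3 cells, so the same dose did not give the same RBM47 level. In WT6 cells it did not rise at each step either, with 3137 at 1 ng/ml and 8094 at 2.5 ng/ml before 3966 at 5 ng/ml. A slope over dose in WT6 cells is thus not a slope over the RBM47 level. The WT6 libraries at 5 and 25 ng/ml stood apart: relative to untreated WT6 cells, and with transcripts sorted into 5 equal bins by length, the median gene of the shortest bin was higher by 0.60 and 0.58 on the log2 scale, and that of the longest bin was lower (-0.41 and -0.46). In the other 10 treated libraries, each set against the untreated library of its clone, these medians stayed between -0.08 and 0.06. IL6, CLCF1, CSF2 and CSF3 belong to the shortest bin and IL6ST and LIFR to the longest, so this trend runs in the direction of part of the WT6 results below. The lines' own markers were abundant, with VIM between 50755 and 104639 normalized counts and CD44 between 7100 and 22521. Of 12 leukocyte, endothelial and stromal markers, 9 stayed under 10 normalized counts in every library and CD3E and MS4A1 were at 0 in all 15. The summed count of these markers was 249 to 847 in WT6, 39.3 to 55.2 in WT10 and 37.5 to 58.8 in MUT3 cells. DCN, a stromal proteoglycan, made up most of the WT6 sum, with 190 to 735 in WT6 cells against 0 to 1.08 in the other clones, and its part in the WT6 results was not tested.

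All 10 members hold the pentamer ATTTA, the core of AU-rich elements, in the 3′UTR of their GENCODE transcript, as do 69.0% of 18383 protein-coding genes. The longer forms were less common in the genome. TATTTAT was found in all 10 members and in 32.5% of genes, and TTATTTATT in 6 members and in 8.67% of genes. The motifs were searched on the transcript strand, and each longer form contains the shorter. CSF2 held the densest cluster, with 8 copies of ATTTA in 318 bases of 3′UTR, and IL6 held 6 in 425 bases. Among genes with a 3′UTR within 25% of the same length, 99.9% had a lower density of the pentamer than CSF2 and 99.1% a lower density than IL6. CSF3 held 7 copies in 854 bases, and 98.3% of genes of similar length had a lower density. CSF1 held 4 copies in 2154 bases and was near the middle of the genes of its length, 47.2% of which had a lower density. The 30-base stretch with the most pentamers is shown for these 4 cytokines, whose dose response is described next, with each ATTTA in capitals. The stretches come from hg19 and are read on the transcript strand, which is the plus strand for all 4. They lie in the 3′UTR at chr5:131411770-131411799 for CSF2, chr7:22771325-22771354 for IL6, chr17:38173239-38173268 for CSF3 and chr1:110473540-110473569 for CSF1.
CSF2: aaatATTTATTTATTTATTTATTTAagttc
IL6: tttttaATTTAttaatATTTAaatatgtga
CSF3: tatctctATTTAatATTTAtgtctATTTAa
CSF1: aaagtcATTTAaatatctATTTAaaagata
The CSF2 stretch holds 5 overlapping copies in 1 run, the CSF3 stretch 3 copies and the IL6 and CSF1 stretches 2 each. The presence of a motif is a description of the reference sequence, not of binding in these cells.

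The first question was how each cytokine mRNA changed with the dose of doxycycline, which induces RBM47. The change was measured as a dose slope, in log2 units per unit of log2(dose + 1), from one limma fit over all 15 libraries and 12644 genes, and a gene was called at a Benjamini-Hochberg adjusted p under 0.05. Of the 10 members, 9 averaged 10 normalized counts or more within every clone and were tested, while CSF3 was not, since it averaged 6.21 in MUT3 cells. In WT10 cells IL6 and CSF2 rose and CSF1 fell, which is 2 of 9 members rising, where 10.2% of all tested genes rose, and 1 of 9 falling, where 9.83% of all tested genes fell. In WT6 cells IL6 and CSF2 rose and CSF1, LIFR and OSMR fell, with 29.2% of all tested genes rising and 28.3% falling. In MUT3 cells 0 of 9 members and 0.0% of all tested genes were called by limma, 2 members (CSF1 and CSF2) and 295 of all genes had an unadjusted p under 0.05, and edgeR called 0 members and 1 gene in all. The shares of members called were thus of the size of those of all genes in WT6 cells. Without the WT6 libraries at 5 and 25 ng/ml, 0 of 9 members were called in WT6 cells by limma, where CSF1 came nearest (slope -0.32, limma adjusted p = 0.0527) and where 1.44% of all tested genes were called, so that this count says little about the members. In that fit, chosen after seeing the data, 6 members were called in WT10 cells: IL6 and CSF2 rose, and CSF1, CLCF1, LIF and LIFR fell. The share of all tested genes called there was larger too, with 18.7% rising and 20.2% falling.

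IL6 (plus strand, chromosome 7, 22765503 to 22771621), the founding cytokine of the family, was low in untreated cells and rose late. In WT10 cells the normalized counts from 0 to 25 ng/ml were 20.6, 14.5, 22.9, 29.8 and 89.1. In WT6 cells the counts at the same doses were 28.5, 29.9, 34.1, 47.7 and 112. In MUT3 cells they were 16.3, 28.9, 35.6, 23.0 and 26.2. The highest dose was thus the highest value in both wild type clones, while in MUT3 cells it lay within the range of the lower doses. The ratio of 25 ng/ml to untreated cells was 4.34 in WT10 cells (95% counting interval 2.62 to 7.55), 3.93 in WT6 cells (2.52 to 6.34) and 1.61 in MUT3 cells (0.794 to 3.43), where the interval includes no change. These intervals cover counting error only, on 13 to 90 reads per library. The slope was 0.55 ± 0.09 (SE) in WT10 cells (limma adjusted p = 0.000801) and 0.47 ± 0.08 in WT6 cells (limma adjusted p = 0.000215), against 0.07 ± 0.10 in MUT3 cells. IL6 is among the shortest transcripts, and with length and GC trends removed its WT6 slope was 0.33 and still called (limma adjusted p = 0.00439). Both slopes rested on the highest dose: without the 25 ng/ml library of the clone itself the slope was 0.26 in WT10 cells (limma adjusted p = 0.551) and 0.28 in WT6 cells (limma adjusted p = 0.201). Without that WT10 library, 6 of all 12644 tested genes were called as rising in WT10 cells and 0 as falling. Without that WT6 library, 2450 were called as rising in WT6 cells and 2173 as falling. The IL6 promoter held 1 match to the NF-κB-like motif GGNNTTTCC, searched on both strands and found in 6.26% of 27305 RefSeq promoters of the same length. The match began 72 bases before the transcript start. A C/EBP-like match (TTNNGNAA, in 37.2% of promoters) began 155 bases before it. The 250 bases before the start, on the plus strand of GRCh38.p14 at chr7:22726950-22727199 (RefSeq), are shown because IL6 rose in both wild type clones, with both matches in capitals.
IL6 promoter: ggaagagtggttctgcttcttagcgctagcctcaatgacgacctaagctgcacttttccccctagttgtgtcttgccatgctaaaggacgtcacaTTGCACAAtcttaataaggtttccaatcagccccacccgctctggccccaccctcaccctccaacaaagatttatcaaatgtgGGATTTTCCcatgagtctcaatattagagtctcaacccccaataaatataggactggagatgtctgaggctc

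CSF2 (plus strand, chromosome 5, 131409482 to 131411863), which encodes the granulocyte-macrophage colony-stimulating factor, rose most clearly in WT10 cells. There its normalized count was 66.0, 67.5, 56.8, 93.8 and 231 from 0 to 25 ng/ml. In WT6 cells it was 27.4, 36.0, 27.3, 54.5 and 58.5. In MUT3 cells it was 12.5, 13.3, 16.8, 15.6 and 31.4, on 10 to 30 reads. At 25 ng/ml the counting interval of WT10 (202 to 263) lay above those of WT6 (43.0 to 77.9) and MUT3 (21.2 to 44.9), which overlapped, and the highest dose was the highest value in each of them, the mutant included. The ratio of 25 ng/ml to untreated cells was 3.50 in WT10 cells (95% counting interval 2.63 to 4.73), 2.14 in WT6 cells (1.29 to 3.62) and 2.51 in MUT3 cells (1.20 to 5.76). The slope was 0.45 ± 0.07 in WT10 cells (limma adjusted p = 0.000462), 0.24 ± 0.09 in WT6 cells (limma adjusted p = 0.0397) and 0.28 ± 0.12 in MUT3 cells, where the unadjusted p was 0.0339 and the limma adjusted p was 1. The WT10 slope was 0.15 without the 25 ng/ml library of WT10 (limma adjusted p = 0.596). In that fit 6 of all tested genes were called as rising in WT10 cells and 0 as falling. The WT6 call was lost without the untreated WT6 library (limma adjusted p = 0.12) or that of 1 (0.0535) or 25 ng/ml (0.226), and with length and GC trends removed the WT6 slope was 0.07 (limma adjusted p = 0.474). The CSF2 promoter held 1 match to the STAT-like motif TTCNNNGAA, which 7.88% of promoters hold, 190 bases before the start, and none of the other 3 motifs searched, the last of which was the AP-1-like TGANTCA (in 7.76% of promoters). Promoter entries were found for 6 members. Besides IL6 and CSF2, matches before the start were found for IL11 (AP-1-like), LIFR (STAT-like and C/EBP-like) and OSMR (C/EBP-like). These 250 bases lie on the plus strand of GRCh38.p14 at chr5:132073539-132073788 (RefSeq) and are shown with the match in capitals, for comparison with the promoter of IL6, whose counts moved alongside those of CSF2.
CSF2 promoter: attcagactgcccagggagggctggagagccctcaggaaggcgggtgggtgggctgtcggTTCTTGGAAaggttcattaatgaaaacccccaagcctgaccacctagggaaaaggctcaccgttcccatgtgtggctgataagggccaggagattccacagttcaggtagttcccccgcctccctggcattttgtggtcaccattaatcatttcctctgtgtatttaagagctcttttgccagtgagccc

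CSF1 (plus strand, chromosome 1, 110452864 to 110473614), the macrophage growth factor, moved the other way. In WT10 cells the normalized counts from 0 to 25 ng/ml were 2162, 2170, 1770, 1569 and 1129. In WT6 cells they were 735, 665, 483, 373 and 335, lower at each step. The MUT3 counts were 1057, 1109, 1237, 1134 and 1380. The treated libraries of both wild type clones from 2.5 ng/ml on lay below the untreated one, and all 4 treated MUT3 libraries lay above theirs. The ratio of 25 ng/ml to untreated cells was 0.523 in WT10 cells (95% counting interval 0.485 to 0.563), 0.456 in WT6 cells (0.394 to 0.526) and 1.31 in MUT3 cells (1.20 to 1.43). The slope was -0.21 ± 0.03 in WT10 cells (limma adjusted p = 0.000572) and -0.27 ± 0.04 in WT6 cells (limma adjusted p = 7.73e-05), against 0.08 ± 0.03 in MUT3 cells (unadjusted p = 0.0368, limma adjusted p = 1). With length and GC trends removed the slopes were -0.18 in WT10 and -0.24 in WT6 cells, both still called. The WT10 slope kept its size but lost its call without the 25 ng/ml library of WT10 (-0.19, limma adjusted p = 0.173). There 6 of all tested genes were called as rising and 0 as falling, so the lost call was not particular to CSF1.

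CSF3 (plus strand, chromosome 17, 38171614 to 38174066), the granulocyte growth factor, had the widest gap between untreated clones of the 10 members. In WT6 cells its normalized count was 938, 942, 782, 1110 and 1516 from 0 to 25 ng/ml. In WT10 cells it was 3.25, 10.6, 11.0, 27.8 and 74.6. In MUT3 cells it was 5.00, 11.1, 5.93, 2.76 and 6.29. The untreated WT10 value rested on 3 reads, at the floor, and the MUT3 values on 3 to 10 reads. The ratio of 25 ng/ml to untreated cells was 23.0 in WT10 cells (95% counting interval 7.56 to 114), 1.62 in WT6 cells (1.48 to 1.77) and 1.26 in MUT3 cells (0.298 to 6.05). When genes needed a mean of 10 in only 1 clone, CSF3 entered the fit and its slope was 0.82 ± 0.12 in WT10 cells (limma adjusted p = 0.000421) and 0.16 ± 0.04 in WT6 cells (limma adjusted p = 0.00473), against -0.06 ± 0.20 in MUT3 cells. In that fit the WT10 slope exceeded the MUT3 slope by 0.88 (limma adjusted p = 0.0384), and the WT6 slope was below the WT10 slope (-0.66, limma adjusted p = 0.0135). CSF3 passed that filter only through its means of 1058 in WT6 and 25.4 in WT10 cells, so its p-values are given as a description. With no filter at all its difference between WT10 and MUT3 was not called, while that between WT6 and WT10 still was. The fits that left out libraries tested only the 9 other members, so the part of the 25 ng/ml libraries in the CSF3 calls was not tested.

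IL11, LIF and CLCF1, the other ligands of the interleukin 6 family among the members, were not called in any clone. IL11 was between 4750 and 6589 normalized counts in WT6, between 459 and 546 in WT10 and between 466 and 514 in MUT3 cells. LIF was between 823 and 1038 in WT6, between 1208 and 1486 in WT10 and between 1005 and 1246 in MUT3 cells. CLCF1 was between 497 and 621 in WT6, between 512 and 653 in WT10 and between 342 and 397 in MUT3 cells. Their slopes lay between -0.09 and 0.05 in all 3 clones. CLCF1 came nearest to a call in WT10 cells, with counts of 653, 637, 616, 521 and 512 from 0 to 25 ng/ml and a slope of -0.09 ± 0.03 (limma adjusted p = 0.0624). With length and GC trends removed CLCF1 was called as falling in WT10 (-0.09, limma adjusted p = 0.0107) and in WT6 cells (-0.10, limma adjusted p = 0.00239).

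Among the receptor chains, LIFR and OSMR fell in WT6 cells and none was called in WT10 or MUT3 cells. LIFR (minus strand, chromosome 5), which binds LIF, was at 902, 805, 898, 681 and 556 normalized counts in WT6 cells from 0 to 25 ng/ml. In WT10 cells it was at 269, 287, 300.2, 254 and 188. In MUT3 cells it was at 286, 255, 261, 299.5 and 246. The highest dose was the lowest value in every clone, and the ratio to untreated cells was 0.616 in WT6 (95% counting interval 0.548 to 0.692), 0.696 in WT10 (0.572 to 0.847) and 0.860 in MUT3 cells (0.714 to 1.04). The slope was -0.15 ± 0.04 in WT6 (limma adjusted p = 0.00248) and -0.12 ± 0.04 in WT10 cells (limma adjusted p = 0.0712). LIFR is the longest member transcript, and with length and GC trends removed the calls changed places: the WT6 slope was -0.03 (limma adjusted p = 0.234) and the WT10 slope -0.13 (limma adjusted p = 0.00407). The WT6 call was also lost without the WT6 library at 25 ng/ml (-0.12, limma adjusted p = 0.151).

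OSMR (plus strand, chromosome 5), the chain through which oncostatin M signals, was at 4003, 3903, 3772, 2655 and 2728 normalized counts in WT6 cells. It was between 1315 and 1615 in WT10 cells and between 953 and 1051 in MUT3 cells, with no called slope. The WT6 values thus split into 3 libraries between 3772 and 4003 and the 2 lower libraries that follow transcript length, and the slope of -0.14 ± 0.03 (limma adjusted p = 0.00254) was -0.06 with length and GC trends removed (limma adjusted p = 0.0142). IL6ST, the shared chain, was between 3145 and 3976 in WT6, between 3844 and 5168 in WT10 and between 4318 and 5055 in MUT3 cells. Its slopes were -0.04 ± 0.03, 0.06 ± 0.03 and 0.03 ± 0.03, and none was called. With length and GC trends removed IL6ST was called as rising in WT6 (0.08, limma adjusted p = 0.000263) and in WT10 cells (0.05, limma adjusted p = 0.0149), so its direction in WT6 cells depended on that correction.

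**Figure D1:**
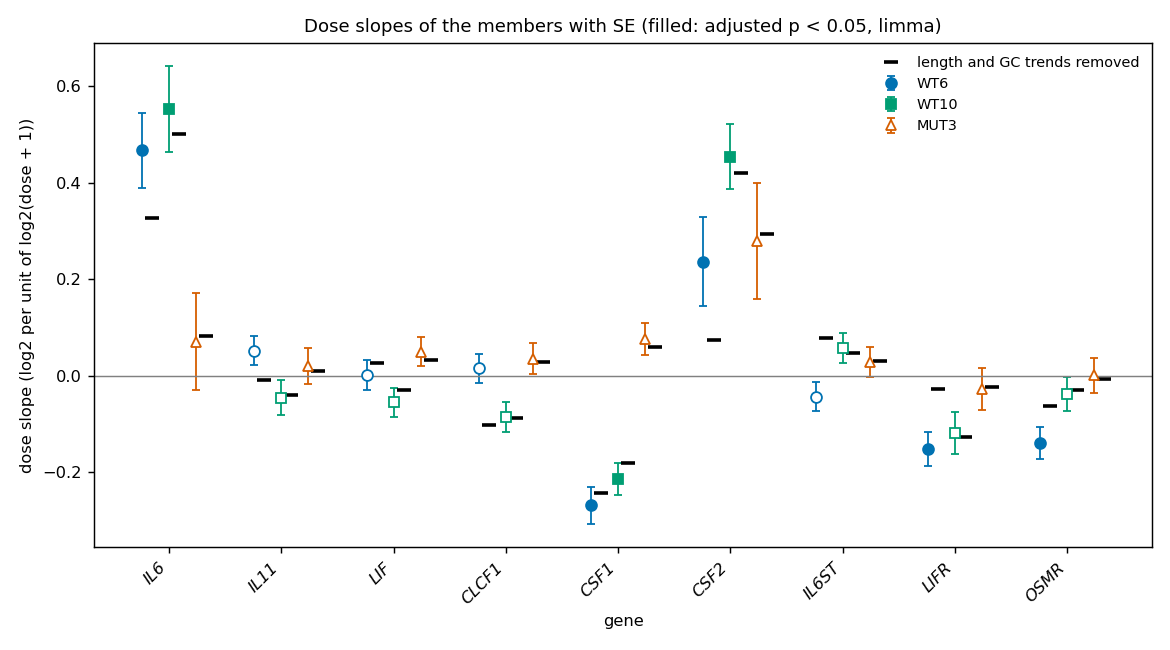
Dose slope (log2 units per unit of log2(dose + 1)) of the 9 tested members in WT6, WT10 and MUT3 cells, with bars for 1 SE, filled markers for a limma adjusted p under 0.05 and black dashes for the slope with length and GC trends removed. IL6 and CSF2 lie above 0 and CSF1 below 0 in both wild type clones, and the dashes move most in WT6 cells, from 0.24 to 0.07 for CSF2 and from -0.15 to -0.03 for LIFR.

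The second question was whether the response differed between wild type and mutant RBM47, which was tested as a difference of slopes. Against the mean slope of both wild type clones, 2 of 9 members differed in MUT3 cells, with 24.6% of all tested genes called. CSF1 differed by -0.32 ± 0.04 (limma adjusted p = 0.00046) and IL6 by 0.44 ± 0.12 (limma adjusted p = 0.0154). The same 2 genes were called when WT10 was compared with MUT3, which come from the same line, where 5.62% of all tested genes were called. CSF1 differed there by -0.29 ± 0.05 (limma adjusted p = 0.0051) and IL6 by 0.48 ± 0.13 (limma adjusted p = 0.0486). These comparisons share the MUT3 and WT10 libraries. The CSF1 difference was called in 13 of the 15 fits that left out 1 library and lost its call without the 25 ng/ml library of WT10 (-0.27, limma adjusted p = 0.219) or of MUT3 (-0.27, limma adjusted p = 0.407). For WT10 against MUT3, 0 of all tested genes were called without that WT10 library. Without that MUT3 library 2 were called above 0 and 0 below, so these lost calls were not particular to CSF1. The IL6 difference between WT10 and MUT3 was at the threshold. Its call was lost in 11 of these 15 fits, with limma adjusted p up to 0.742, and with length and GC trends removed (0.42, limma adjusted p = 0.0595). The call on the mean wild type slope of IL6 was lost without the 25 ng/ml library of WT6, WT10 or MUT3, with limma adjusted p up to 0.411, without the WT6 libraries at 5 and 25 ng/ml (0.28, limma adjusted p = 0.285) and with length and GC trends removed (0.33, limma adjusted p = 0.0543). For that comparison, 2 of all tested genes were called above 0 and 1 below without the 25 ng/ml library of MUT3. The counts were 356 and 708 without that of WT10, and 1567 and 1848 without that of WT6. CSF2 did not pass in either comparison, with a difference of 0.17 ± 0.14 between WT10 and MUT3 (limma adjusted p = 0.493). At the top dose RBM47 reached 19877 in WT10 and 22084 in MUT3 cells, but at 2.5 ng/ml it was 2822 and 336, so the mutant was compared at a lower transgene level at the intermediate doses.

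Between the wild type clones 0 of 9 members differed in slope by limma, where 14.4% of all tested genes did. Of the 9, 2 (CLCF1 and IL6ST) had an unadjusted p under 0.05, and edgeR called 0. With length and GC trends removed, the CSF2 slope was called as lower in WT6 than in WT10 cells (-0.35, limma adjusted p = 0.0362).

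The third question was how the clones differed before induction, for which the fitted levels at zero dose were compared. Between WT6 and WT10 cells, 5 of 9 members differed, with 59.6% of all tested genes called. IL11 was higher in WT6 by 3.19 ± 0.12 on the log2 scale, with 5063 normalized counts in the untreated WT6 library and 538 in the untreated WT10 library (limma adjusted p = 1.94e-11). LIFR was higher by 1.62 ± 0.14 (limma adjusted p = 1.23e-07) and OSMR by 1.37 ± 0.12 (limma adjusted p = 1.81e-07). CSF1 was lower in WT6 cells (-1.68 ± 0.12, limma adjusted p = 2.2e-08), as was LIF (-0.61 ± 0.11, limma adjusted p = 0.000213). IL11 and both receptor chains other than IL6ST were thus higher in WT6, and CSF1 and LIF in WT10 cells. CSF3, outside this test, was at 938 in untreated WT6 cells against 3.25 in untreated WT10 cells, a ratio of 289 (95% counting interval 98.6 to 1404). Since WT6 and WT10 come from different lines by the study's methods, line and clone cannot be told apart here.

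Between WT10 and MUT3 cells, clones of the same line, 5 of 9 members were higher in WT10 and 0 were lower, with 28.2% of all tested genes called. CSF2 was higher by 1.96 ± 0.40 (limma adjusted p = 0.00195), CSF1 by 1.12 ± 0.12 (limma adjusted p = 1.04e-05) and CLCF1 by 0.90 ± 0.12 (limma adjusted p = 5.04e-05). OSMR was higher by 0.67 ± 0.13 (limma adjusted p = 0.00139) and LIF by 0.48 ± 0.11 (limma adjusted p = 0.00449), a call lost without the untreated MUT3 library (0.42, limma adjusted p = 0.0562). RBM47 itself was at 168 in untreated WT10 and 73.8 in untreated MUT3 cells. The dose responses of CSF1 and CSF2 thus started from unequal levels, and at 25 ng/ml CSF1 was at 1129 in WT10 and 1380 in MUT3 cells.

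Levels of different genes were compared per kilobase of transcript, as the mean normalized count over the 5 libraries of a clone. IL6ST led in WT10 (499 per kilobase) and MUT3 cells (522 per kilobase), followed by CSF1 (441 and 296), LIF (347 and 289) and CLCF1 (345 and 218). In WT10 cells the range of CSF1 over the 5 libraries overlapped those of IL6ST, LIF and CLCF1, those of LIF and CLCF1 overlapped, and that of IL6ST lay above both of these. In MUT3 cells the range of IL6ST lay above that of CSF1, those of CSF1 and LIF overlapped, and that of LIF lay above that of CLCF1. In WT6 cells the order was different, with IL11 (2296 per kilobase) above all others and CSF3 (703) and OSMR (618), whose ranges overlapped, next. At the low end, IL6 was at 44.8 per kilobase in WT6, 31.4 in WT10 and 23.0 in MUT3 cells, and CSF2 at 51.7, 131 and 22.8. CSF3 was the lowest in WT10 and MUT3 cells (16.9 and 4.13).

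The pattern of each tested member over the 15 libraries, as the log2 value minus its mean in the clone, was compared with that of every tested gene by Pearson's r. These libraries share doses, depth and, in WT6 cells, the length trend, so r is given as a description. The 5 genes most like IL6 were ATF3 (0.97), TOR1B (0.96), ZNF766 (0.95), MAFF (0.95) and NAAA (0.95). For CSF2 they were CDKN1A (0.95), MFI2 (0.94), C1S (0.93), CXCL3 (0.92) and C10orf54 (0.91), and for CSF1 they were ADD1, RNF26, SEMA4B, DHX16 and SOCS3 (each 0.98). The genes most like OSMR were ROCK2, SETD2, RC3H2, GTF3C4 and FEM1B (r of 0.98 each), and those most like LIFR were MALT1 (0.97), EXO1, ELP2, ZC3H14 (0.96 each) and FAT4 (0.95). For IL6ST they were G3BP2, AFTPH (0.95 each), OXR1 (0.95), SPTY2D1 (0.94) and CDC14B (0.92). For IL11 (HNRNPC, NKAP, DYRK4, RPF2 and C2orf49), LIF (MMP14, CD82, MYD88, C10orf26 and CORO2B) and CLCF1 (FADD, ID3, REEP4, PLAUR and TUBB4B), whose own changes were small, the highest r was 0.94, 0.86 and 0.92. Among the members IL6 was most like CSF2 (0.80) and ran opposite to LIFR (-0.90) and CSF1 (-0.78), and LIFR and OSMR ran together (0.81).

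Most of the other ligands of the 2 families, and some of the other receptor chains, were near or below the floor. Of 8 further ligands, 2 were tested, EBI3 and CTF1. EBI3, a subunit of interleukin 27, rose from 12.1 to 152 normalized counts in WT6 cells (slope 0.82 ± 0.08) and from 145 to 365 in WT10 cells (0.30 ± 0.05, limma adjusted p = 0.0011). It was at 90.0 and 204 in untreated and fully induced MUT3 cells. There its slope was 0.25 ± 0.06 (limma unadjusted p = 0.000613, limma adjusted p = 0.554). The WT10 slope of EBI3 exceeded its MUT3 slope by only 0.052 (limma adjusted p = 0.75). CTF1, or cardiotrophin 1, rose from 99.7 to 344 in WT6 cells (0.41 ± 0.05) and was not called in the other clones. With length and GC trends removed, 1 of these 2 ligands was called as rising in MUT3 cells, where 7 of 12116 genes were. OSM, which signals through OSMR, was at most 1.10 normalized counts in any library. Of 9 further receptor chains 4 were tested, and 1, IL11RA, rose in WT6 cells, from 36.2 to 108 (0.34 ± 0.07). IL31RA and IL27RA, the others named by slope, were not called in any clone, with slopes between -0.12 and 0.04. The receptor chains of the colony-stimulating factors were named after their values were seen: CSF2RA was at 0 in all 15 libraries, CSF2RB and CSF3R were at most 2.49, and CSF1R was between 4.26 and 28.9.

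Downstream of the receptors, 0 of 7 kinases and STATs rose in the wild type clones, where 29.2% (WT6) and 10.2% (WT10) of all tested genes rose. In MUT3 cells 0 of the 7 and 0.0% of all tested genes were called. In WT6 cells 5 of 7 fell, where 28.3% of all tested genes fell, JAK2, STAT3 and TYK2 among them, with a median slope of -0.15 against 0.01 over all tested genes, and in WT10 cells 2 of 7 fell (STAT5B and TYK2), where 9.83% of all tested genes fell, with a median of -0.05 against -0.0027. In WT6 cells 1 of the 7 rose and 4 fell with length and GC trends removed, where 27.1% of all genes in that fit rose and 31.5% fell. Without the WT6 libraries at 5 and 25 ng/ml, the WT6 count was 0 for these genes and for the target, feedback and decay lists that follow. In that fit 1.44% of all tested genes were called in WT6 cells. STAT3, the main transcription factor of the pathway, went from 3459 to 2210 normalized counts in WT6 cells (slope -0.16 ± 0.03, limma adjusted p = 0.0013) and from 2946 to 2550 in WT10 cells (-0.05 ± 0.03, limma adjusted p = 0.34). JAK2 had a slope of -0.24 ± 0.07 in WT6 cells (limma adjusted p = 0.0103), and -0.13 with length and GC trends removed (limma adjusted p = 0.128). TYK2 fell in WT6 (-0.19 ± 0.03) and WT10 cells (-0.10 ± 0.03, limma adjusted p = 0.0478). ADAM10 and ADAM17, proteases that shed receptor chains, both fell in WT6 cells, mainly in the 2 libraries that follow transcript length, and neither was called in WT10 or MUT3 cells. Of 13 tested genes known as STAT3 targets, 5 rose and 4 fell in WT6 cells, near the shares of all tested genes (29.2% and 28.3%). In WT10 cells 0 of these targets were called, where 10.2% of all tested genes rose and 9.83% fell. In MUT3 cells 0 targets and 0.0% of all tested genes were called. Once length and GC trends were removed, 2 targets rose and 2 fell in WT10 cells, and 4 rose and 5 fell in WT6 cells. Of all genes in that fit, 15.5% rose and 20.6% fell in WT10 cells, and 27.1% rose and 31.5% fell in WT6 cells. In that fit the counts of this list were thus near the shares of all genes. TIMP1 (0.38 ± 0.05), JUNB (0.33 ± 0.03) and FOS (0.28 ± 0.04) had the largest slopes in WT6 cells.

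The feedback list holds PIAS and PTPN genes besides SOCS genes, so it is wider than feedback inhibitors alone. Of its 12 tested genes, 6 fell and 1 rose in WT6 cells, where 28.3% of all tested genes fell and 29.2% rose. In WT10 cells 4 fell and 0 rose, where 9.83% of all tested genes fell and 10.2% rose. The median slope of the list was -0.09 in WT6 and -0.07 in WT10 cells, against 0.01 and -0.0027 over all tested genes. In WT10 cells 9 of the 12 fell with length and GC trends removed, where 20.6% of all genes in that fit fell. In WT6 cells 6 fell and 1 rose in that fit, where 31.5% of all genes fell and 27.1% rose. Between WT10 and MUT3 cells the slope of 1 of the 12 (SOCS3) differed, where 5.62% of all tested genes did. With length and GC trends removed 3 of the 12 were lower in that comparison, as were 10.9% of all genes. SOCS3, the inhibitor that acts on IL6ST, was at 1192, 1183, 1012, 927 and 796 normalized counts in WT10 cells from 0 to 25 ng/ml. In WT6 cells it was at 1825, 1647, 1437, 1233 and 1049. In MUT3 cells it was at 1017, 992, 1069, 1003 and 1097. The values fell at each step in both wild type clones and showed no order in the mutant. The slope was -0.13 ± 0.02 in WT10 (limma adjusted p = 0.0019) and -0.18 ± 0.02 in WT6 cells, and that of WT10 was below that of MUT3 by -0.16 ± 0.03 (limma adjusted p = 0.0186). This difference lost its call without the 25 ng/ml library of WT10 (limma adjusted p = 0.234), or the MUT3 library at 0 (0.0732) or 25 ng/ml (0.492), and was -0.13 with length and GC trends removed (limma adjusted p = 0.00627). For this comparison 0 of all tested genes were called without the 25 ng/ml library of WT10. Without that of MUT3, 2 were called above 0 and 0 below.

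Of 10 proteins that bind AU-rich or stem-loop elements in cytokine mRNAs and act on their decay, 4 rose and 3 fell in WT6 cells, against 29.2% and 28.3% of all tested genes, and 2 rose and 3 fell in WT10 cells, against 10.2% and 9.83%. ZC3H12A, or Regnase-1, an endonuclease that cleaves IL6 mRNA, was at 241, 274, 299.2, 358 and 706 normalized counts in WT10 cells from 0 to 25 ng/ml. In MUT3 cells it was at 143, 150, 159, 163 and 179. Its slope was 0.34 ± 0.03 in WT10 cells and 0.20 ± 0.03 in WT6 cells, and that of WT10 exceeded that of MUT3 by 0.27 ± 0.06 (limma adjusted p = 0.013). KHSRP, which promotes the decay of AU-rich mRNAs, went from 10893 to 6703 in WT10 cells and from 5438 to 2721 in WT6 cells, and was between 9556 and 10463 in MUT3 cells. Its WT10 slope was below that of MUT3 by -0.17 ± 0.04 (limma adjusted p = 0.0209). ZC3H12A thus rose and KHSRP fell alongside the rise of IL6 in the wild type clones. The ZC3H12A difference was lost without the 25 ng/ml library of WT10 (limma adjusted p = 0.382) or the MUT3 library at 0 (0.0648) or 25 ng/ml (0.457), and the KHSRP difference without these (0.299, 0.066 and 0.53) or the WT10 library at 1 ng/ml (0.053). Without either 25 ng/ml library hardly any gene was called for this comparison, as given for SOCS3.

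**Figure D2:**
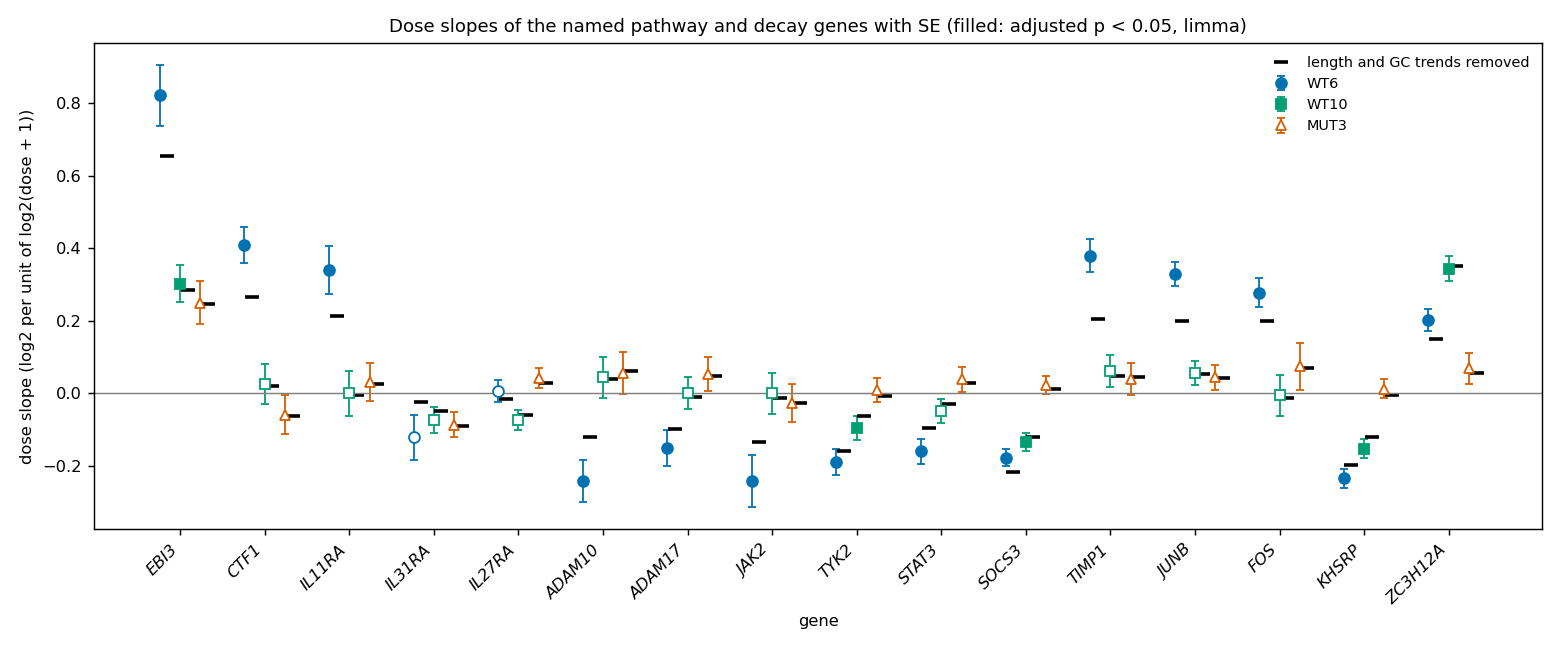
Dose slope (log2 units per unit of log2(dose + 1)) of 16 named genes of the ligand, receptor, protease, kinase and STAT, feedback, STAT3 target and mRNA decay lists in WT6, WT10 and MUT3 cells, with bars for 1 SE, filled markers for a limma adjusted p under 0.05 and black dashes for the slope with length and GC trends removed. SOCS3 and KHSRP lie below 0 and ZC3H12A and EBI3 above 0 in both wild type clones, and no MUT3 marker is filled. The EBI3 slope is also above 0 in MUT3 cells (0.25, against 0.30 in WT10 cells).

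Overlapping annotation limits some of these values. On hg19, IL6 overlaps IL6-AS1 and STEAP1B on the opposite strand, LIFR overlaps LIFR-AS1, LIF overlaps LIF-AS1 and LIF-AS2, OSMR overlaps RICTOR, IL6ST overlaps 3 genes on the opposite strand, and CLCF1 overlaps 1 gene on its own strand and RAD9A on the other. Whether the libraries keep the strand is not given in the sources used here, and without strand the reads of such pairs cannot be told apart. Fewer cells that express a gene and less RNA per cell cannot be told apart in these bulk libraries.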

How the data were processed

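RNA from 15 libraries (3 clones at 5 doxycycline doses) was sequenced by the authors as poly(A) RNA, mapped to hg19 with STAR and counted per gene with HTSeq 0.5.4. The deposited signal is a count divided by a DESeq size factor, and whole reads were recovered from it (100% whole within 0.001). By the study's methods HTSeq was run with its default settings. The annotation used for counting and whether the libraries keep the strand are not given in the sources used here. Of all tallied reads, 56.5% to 59.6% fell on no feature and were left out. Because the values are scaled, limma 3.58.1 (R 4.3.3) with vooma weights was fitted to log2(signal + 1), giving each clone its own level at zero dose and its own slope over log2(dose + 1) (6 coefficients, 9 residual degrees of freedom), for 12644 genes with a mean of at least 10 in each clone. Fold changes on this scale understate the change of low genes. P-values were adjusted by Benjamini-Hochberg over all tested genes. With 1 library per condition they measure the scatter of libraries around a line over dose, which may be technical. The fit was tested on simulated data. Alternatives included edgeR 4.0.16 on the recovered reads and the removal of length and GC trends by splines with 4 degrees of freedom. Lengths, GC content and 3′UTRs came from GENCODE release 44 on hg19, which matched 92.0% of the genes, and promoters from RefSeq (GRCh38.p14, 250 bases before to 50 after the start, 6 of 10 members matched). Counting intervals are exact 95% Poisson or conditional binomial (Clopper-Pearson) intervals and cover counting error only. Depth was 14955172 to 44771871 reads on genes. The text names all members, RBM47, the 5 genes most like each tested member, and from each other list the genes that differed between WT10 and MUT3, or else the 3 with the largest slopes in WT6 or WT10. Named pathway genes beyond this are counts of lists or receptor chains named after their values were seen. Members and lists were chosen with earlier results of these data known. Analyses used Python 3.11.15, numpy 2.4.6, pandas 2.3.3 and scipy 1.17.1. Some genes of these lists are not reported here.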

Additional observations from a re-analysis of the deposited data

Results flagged for a closer look

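Slopes that differed between clones by limma adjusted p under 0.05 are given here as differences in log2 units per unit of log2(dose + 1), with 5 libraries per clone. The mean wild type slope exceeded the MUT3 slope by 0.439 for IL6, 0.311 for EBI3, 0.276 for CTF1, 0.207 for KRT18, 0.204 for ZC3H12A, 0.182 for TIMP1 and 0.148 for JUNB. It was below the MUT3 slope for CSF1 (-0.318), EGFR (-0.318), KHSRP (-0.206), SOCS3 (-0.180), TYK2 (-0.152) and STAT3 (-0.143). The mean includes the WT6 libraries that follow transcript length. For WT10 cells alone against MUT3 cells, EBI3 (0.052), CTF1 (0.084), KRT18 (0.142), TIMP1 (0.024) and JUNB (0.011) were not called. Nor were EGFR (-0.133), TYK2 (-0.105) and STAT3 (-0.087) called in that comparison.

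Between WT10 and MUT3 cells, from the same line, the difference was 0.483 for IL6, 0.275 for ZC3H12A, -0.290 for CSF1, -0.166 for KHSRP and -0.159 for SOCS3.

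Between WT6 and WT10 cells the difference was 0.519 for EBI3, 0.383 for CTF1, 0.340 for IL11RA, 0.317 for TIMP1, 0.282 for FOS and 0.273 for JUNB, and -0.370 for EGFR, -0.286 for ADAM10 and -0.130 for CD44. The WT6 libraries at 5 and 25 ng/ml follow transcript length. With length and GC trends removed, EBI3 and CTF1 were still called as higher in WT6 cells. Of 4 tested further receptor chains and 2 proteases, 0 were called there, so IL11RA and ADAM10 lost their calls. Of 4 tested cell line markers 1 was lower, and of 13 STAT3 targets 3 were higher and 2 lower. Of all genes in that fit, 6.59% were higher and 8.58% lower. Without the WT6 libraries at 5 and 25 ng/ml, 3 WT6 libraries were left. Limma then called 1.44% of all tested genes and 0 genes of the lists for the slope in WT6 cells.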

How the results depend on the processing

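Of 9 tested members, limma called 5 for the slope in WT6, 3 in WT10, 0 in MUT3, 2 for the mean wild type slope and 2 for the WT10 slope against MUT3, 0 for WT6 against WT10, and 5 for each comparison of levels. Called members under alternatives that moved these counts follow, and where no value allows a cause, the cause was not tested. Without 25 ng/ml, WT6 had 3 (with IL11 newly rising) and WT10 and both comparisons with MUT3 had 0. Of all tested genes, 14 rose and 3 fell in WT10 cells in that fit. For the mean wild type slope against MUT3, 1 was called above 0 and 0 below, and for WT10 against MUT3 0 were called. With the log2 RBM47 value as the covariate all slope counts were 0, and it allows no level comparison. Of all tested genes, 2 rose and 0 fell in WT6 cells in that fit, and 76 rose and 13 fell in WT10 cells. With any doxycycline against none all slope counts were 0 too, the level difference between WT10 and MUT3 had 0, and IL6 turned to -0.10 for the mean wild type slope and -0.19 for WT10 against MUT3. There 0 of all tested genes were called for the slope in WT6 or WT10 cells. Each clone alone gave 3 in WT6 and 1 (CSF1, rising) in MUT3, and no comparison of clones. With length and GC trends removed both comparisons with MUT3 had CSF1 and CLCF1 in place of CSF1 and IL6, WT10 had 6 and WT6 against WT10 had 1. Of all genes in that fit, 36.0% were called in WT10 cells and 15.2% for WT6 against WT10. A pseudocount of 5, no filter and no precision weights each gave 1 for WT10 against MUT3, and a filter on 1 clone and no filter each gave 1 for WT6 against WT10. Leaving out the WT6 libraries at 5 and 25 ng/ml, an alternative chosen after seeing the data, gave 0 in WT6, 6 in WT10, 1 for the mean wild type slope and 4 for WT10 against MUT3. Of all tested genes, 1.44%, 38.9%, 12.6% and 24.2% were called there, in the same order. Leaving out 1 library at a time gave 3 to 5 in WT6, 0 to 5 in WT10, 0 to 2 for the mean wild type slope, 0 to 3 for WT10 against MUT3 and 0 to 1 for WT6 against WT10. The lowest counts came without the 25 ng/ml library of WT6 (WT6 slopes), of WT10 (WT10 slopes), of MUT3 (mean wild type against MUT3) and of WT10 or MUT3 (WT10 against MUT3). Apart from the WT6 slopes, these fits called hardly any of all tested genes either, as given above, so these counts say little about the members. Of 39 called results of members, SOCS3, ZC3H12A and KHSRP, 413 values under alternatives kept the call in 315, lost it in 96 and turned in 2, and of 585 with 1 library left out 533 kept it. No paired analysis was possible because each condition has 1 library and the labels give no replicate numbers, and a pairing of clones by dose was not run. Fewer than 100 reads per library limit IL6, CSF2 in WT6 and MUT3 and, outside WT6, CSF3. CSF2 in WT10 cells also had fewer at 0, 1 and 2.5 ng/ml (61, 70 and 57 reads).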
